A study of Mus musculus with 15 samples.

Results

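The genes described here are 42 mouse interferon-stimulated genes, chosen by symbol in the deposited gene tables, of 26839 genes that have a row in at least 1 of those tables. Liver RNA of male C57BL/6J mice had been sequenced in 15 libraries, 3 in each of 5 groups. Every group had received an adeno-associated virus vector of serotype 8 (AAV8), and the diets ran for 16 weeks. The chow GFP group expressed green fluorescent protein (GFP) from the thyroxine binding globulin (TBG) promoter, which restricts expression to the liver, and ate standard chow. The NASH GFP group carried the same vector and ate the FPC diet with sugar water, labelled as a diet for non-alcoholic steatohepatitis (NASH). The NASH Activin A group ate this diet and expressed Activin A, a signalling protein related to transforming growth factor beta, from the TBG promoter. The NASH scramble and NASH Gpnmb hairpin groups ate the same diet and carried an H1 promoter driving a scrambled hairpin or a hairpin that knocks down Gpnmb, a transmembrane glycoprotein gene active in macrophages. No ages are given. The labels do not say that each library is its own animal, and the p-values therefore cover only the spread among the sequenced samples, part of which may be technical.

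Interferons are secreted proteins that warn cells of infection or tissue damage. Type I interferons (alpha and beta) signal through JAK kinases to a complex that includes STAT2 and IRF9 and binds an interferon-stimulated response element in promoters, whereas interferon gamma acts through a gamma-activated site. The genes switched on include effectors that block viral RNA (the IFIT and OAS families), GTPases that attack vacuoles of intracellular microbes (the GBP and immunity-related GTPase families), subunits of the immunoproteasome and chemokines that attract T cells. Many genes answer both kinds of interferon. In liver, hepatocytes, Kupffer cells, infiltrating macrophages and endothelial cells can all express them.

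Promoter sequences of 32 of the 42 genes were found in the RefSeq table (build GRCm38.p6). The 10 genes not matched were Oas2, Usp18, Ifi27l2a, Dhx58, Rtp4, Zbp1, Gbp6, Iigp1, Parp14 and Ly6e. Each window covers 250 bases before to 50 bases after the start. The letters GAAANNGAAA (either strand, N standing for any base), the core of the interferon-stimulated response element, occurred in 18 of the 32 promoters (56.2%) against 3.99% of 27025 genes with a promoter. The letters TTCNNNGAA, the core of the gamma-activated site and the same on both strands, occurred in 8 of 32 (25%) against 9.55%. The 160 bases before the start are printed here for 8 genes, to show the motifs in 4 genes known for their answer to type I interferon (Ifit1, Ifit3, Oas3 and Isg15) and in 4 known for their answer to interferon gamma. Capitals mark matches to either motif. Each line runs 5′ to 3′ on the gene's strand and ends at the base before the start.
Ifit1, chr19:34640729-34640888 (+ strand): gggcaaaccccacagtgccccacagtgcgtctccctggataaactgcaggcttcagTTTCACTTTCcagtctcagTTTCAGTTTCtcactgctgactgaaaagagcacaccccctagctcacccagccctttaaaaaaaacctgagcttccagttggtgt
Ifit3, chr19:34583369-34583528 (+ strand): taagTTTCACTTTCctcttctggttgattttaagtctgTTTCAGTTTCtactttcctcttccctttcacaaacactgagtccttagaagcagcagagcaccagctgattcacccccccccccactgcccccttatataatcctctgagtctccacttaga
Oas3, chr5:120777660-120777819 (- strand): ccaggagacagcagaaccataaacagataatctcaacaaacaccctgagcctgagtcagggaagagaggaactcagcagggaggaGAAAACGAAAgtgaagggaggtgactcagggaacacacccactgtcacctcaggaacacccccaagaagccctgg
Isg15, chr4:156200819-156200978 (- strand): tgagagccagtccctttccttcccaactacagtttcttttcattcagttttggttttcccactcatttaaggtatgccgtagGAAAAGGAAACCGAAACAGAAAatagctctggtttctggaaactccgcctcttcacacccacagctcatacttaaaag
Gbp2, chr3:142620503-142620662 (+ strand): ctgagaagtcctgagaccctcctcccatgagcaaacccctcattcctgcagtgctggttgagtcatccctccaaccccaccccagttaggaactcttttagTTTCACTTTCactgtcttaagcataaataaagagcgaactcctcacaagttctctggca
Gbp7, chr3:142530176-142530335 (+ strand): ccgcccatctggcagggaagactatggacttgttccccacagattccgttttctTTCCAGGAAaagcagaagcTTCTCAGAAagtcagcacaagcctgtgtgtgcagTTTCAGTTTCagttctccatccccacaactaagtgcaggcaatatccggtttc
Irgm2, chr11:58214817-58214976 (+ strand): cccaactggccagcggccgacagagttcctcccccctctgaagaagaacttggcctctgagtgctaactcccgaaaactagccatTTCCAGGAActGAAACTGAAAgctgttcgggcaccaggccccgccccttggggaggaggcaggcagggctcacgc
Psmb8, chr17:34198035-34198194 (+ strand): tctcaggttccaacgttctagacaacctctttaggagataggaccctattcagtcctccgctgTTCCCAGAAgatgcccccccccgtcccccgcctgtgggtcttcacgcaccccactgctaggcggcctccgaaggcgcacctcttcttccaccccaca
Ifit1 and Ifit3 each carried GAAANNGAAA at 2 places, Isg15 carried it at 3 overlapping places, and Oas3 and Gbp2 carried it once. Gbp7 and Irgm2 carried both motifs, and Psmb8 carried the gamma-activated core alone. Of the 8 IFIT and OAS genes with a promoter, 5 held GAAANNGAAA and 2 held TTCNNNGAA, and of 7 gamma-induced genes (Gbp2, Gbp3, Gbp7, Irgm1, Irgm2, Cxcl9 and Psmb8) 5 and 3 did. A match is a description of letters, not a binding site.

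Libraries held 15276879 to 23467867 counts, albumin took 4.53% to 6.70% of them, and scaling factors by the trimmed mean of M values (TMM) were lower in chow libraries (0.815 to 0.915) than in the others (0.988 to 1.13). The vectors' targets differed in the labelled direction. Gpnmb stood at 0.292 ± 0.171 CPM (counts scaled to a library size of 1e+06, mean ± SD, n = 3) in chow GFP, 30.6 ± 8.88 in NASH GFP, 31.4 ± 5.05 in scramble and 2.02 ± 1.13 in hairpin libraries, and Inhba, whose product forms Activin A, at 8.05 ± 0.114 in NASH GFP and 24.9 ± 0.923 in Activin A libraries. Each intervention also moved the other's target. Gpnmb fell under Activin A, to 4.0 ± 1.47 CPM (-2.93 ± 0.27, adjusted p = 0.000731), and Inhba rose under the hairpin, from 5.48 ± 0.676 CPM in scramble to 10.4 ± 1.68 CPM (0.92 ± 0.17, adjusted p = 0.00325). Cell type markers moved too. Of 12 macrophage markers, 11 rose on the diet (11.2% of all genes tested), 9 fell under Activin A (3.86%) and 10 fell under the hairpin (12.0%). Their summed level was 149.6 to 152 CPM in chow, 471 to 554 in NASH GFP, 183 to 206 in Activin A, 412 to 510.4 in scramble and 197 to 264 in hairpin libraries. The 9 measured hepatocyte markers summed to 86350 to 120300 CPM in chow, 59470 to 73610 in NASH GFP, 78750 to 80480 in Activin A, 62100 to 75740 in scramble and 75600 to 80930 in hairpin libraries. Albumin, with the shares of counts given above, is 1 of the 9. Of the 9, 3 fell on the diet (5.82% of all genes), 1, Ttr, rose under Activin A (1.66%) and 4 rose under the hairpin (12.2%). Under each intervention 3 of the 9 had negative log2 fold changes. The 17 T and NK cell markers summed to 5.79 to 6.93 CPM in chow, 9.72 to 11.9 in NASH GFP, 4.53 to 9.06 in Activin A, 5.71 to 7.03 in scramble and 4.22 to 5.06 in hairpin libraries, and 5 of the 17 passed the filter on low counts in the diet comparison. The 7 markers of plasmacytoid dendritic cells, which make much type I interferon, summed to 17.8 to 21.0 CPM in chow and 59.3 to 127 in NASH GFP, of which Ly6d, also an epithelial gene, made up 37.9 to 107 CPM in NASH GFP, while their defining gene Siglech reached at most 1.31 CPM in any library. In these bulk samples fewer cells of a type and less RNA per cell cannot be told apart, and the part of these cell markers in the results below was not tested.

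All 42 genes had rows in all 3 tables and passed the filter on low counts in every comparison. On the NASH diet, 16 of the 42 rose and 0 fell under edgeR's quasi-likelihood test (Benjamini-Hochberg adjusted p under 0.05), where 11.2% of all 14388 genes tested rose and 5.82% fell. Under Activin A, 28 fell and 0 rose against GFP on the same diet, where 3.86% of 14598 genes fell and 1.66% rose. Under the Gpnmb hairpin, 26 fell and 3 rose against scramble, where 12.0% of 14845 genes fell and 12.2% rose. The median log2 fold change over the 42 genes was 0.56 for the diet, -1.0 for Activin A and -0.60 for the hairpin, against medians of -0.01, 0.00 and 0.00 over all genes tested. All 3 NASH GFP libraries lay above all chow libraries for 23 genes (19.0% of all genes) and below them for 1 gene, Iigp1 (16.4%), which overlapped with scaling by library size alone. All Activin A libraries lay below all NASH GFP libraries for 37 genes (13.4% of all genes), and all hairpin libraries lay below all scramble libraries for 28 (20.0%) and above them for 3 (21.0%), of which Irgm2 and Trim25 overlapped with scaling by library size alone. The diet and the Activin A comparison share the NASH GFP libraries. The Activin A and hairpin comparisons share none. No gene fell on the diet or rose under Activin A at an unadjusted p under 0.05 (0 of 42 in edgeR, where 12.1% and 8.31% of all genes did), and DESeq2 called 0 as well. Scaling by library size alone moved the median of all genes to 0.24 (log2) for the diet, with 2671 genes higher and 405 lower against 1607 and 838 with TMM, and to -0.11 for the hairpin, with 1006 and 2464 against 1813 and 1788. The calls among the 42 were then 23 higher for the diet, 32 lower for Activin A, and 28 lower and 1 higher for the hairpin. DESeq2 called 18 higher for the diet, 34 lower for Activin A, and 27 lower and 3 higher for the hairpin. Over all genes it called 1779 of 14386 higher for the diet and 869 of 14595 lower for Activin A. For the hairpin it called 1791 of 14843 genes lower and 1733 higher. By the authors' deposited adjusted p-values the counts were 17 higher, 32 lower, and 26 lower and 3 higher.

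The scramble libraries, a separate NASH group, gave a second reading of the diet against the same chow libraries, with the vector differing as well as the diet. In 1 fit over all 15 libraries, 30 of the 42 genes were higher and 1, Iigp1, was lower in scramble than in chow (17.0% and 17.4% of 15665 genes), with a median log2 fold change of 0.70. All scramble libraries lay above all chow libraries for 31 genes (23.7% of all genes) and below them for 1, Iigp1 (23.1%), which overlapped with scaling by library size alone. Of the 31 calls at an adjusted p under 0.05, 21 held under all alternatives. When 1 library was left out, 9 of the 30 higher calls were lost in at least 1 fit: Oasl1, Dhx58, Rtp4, Gbp6, Gbp7, Psmb9, Parp14, Trim25 and Ly6e (adjusted p of up to 0.140). The call for Iigp1 was lost without chow replicate 2 or without any 1 scramble library (adjusted p of up to 0.0623). Scramble and NASH GFP, the 2 control groups on the diet, differed at an adjusted p under 0.05 for 0 of the 42 genes in edgeR and for 0 in DESeq2, where 0.172% of all genes were higher and 0.568% lower in edgeR. At an unadjusted p under 0.05, 12 of the 42 were higher and 2 were lower in scramble, where 6.98% of all genes were higher and 9.28% lower.

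**Figure D1:**
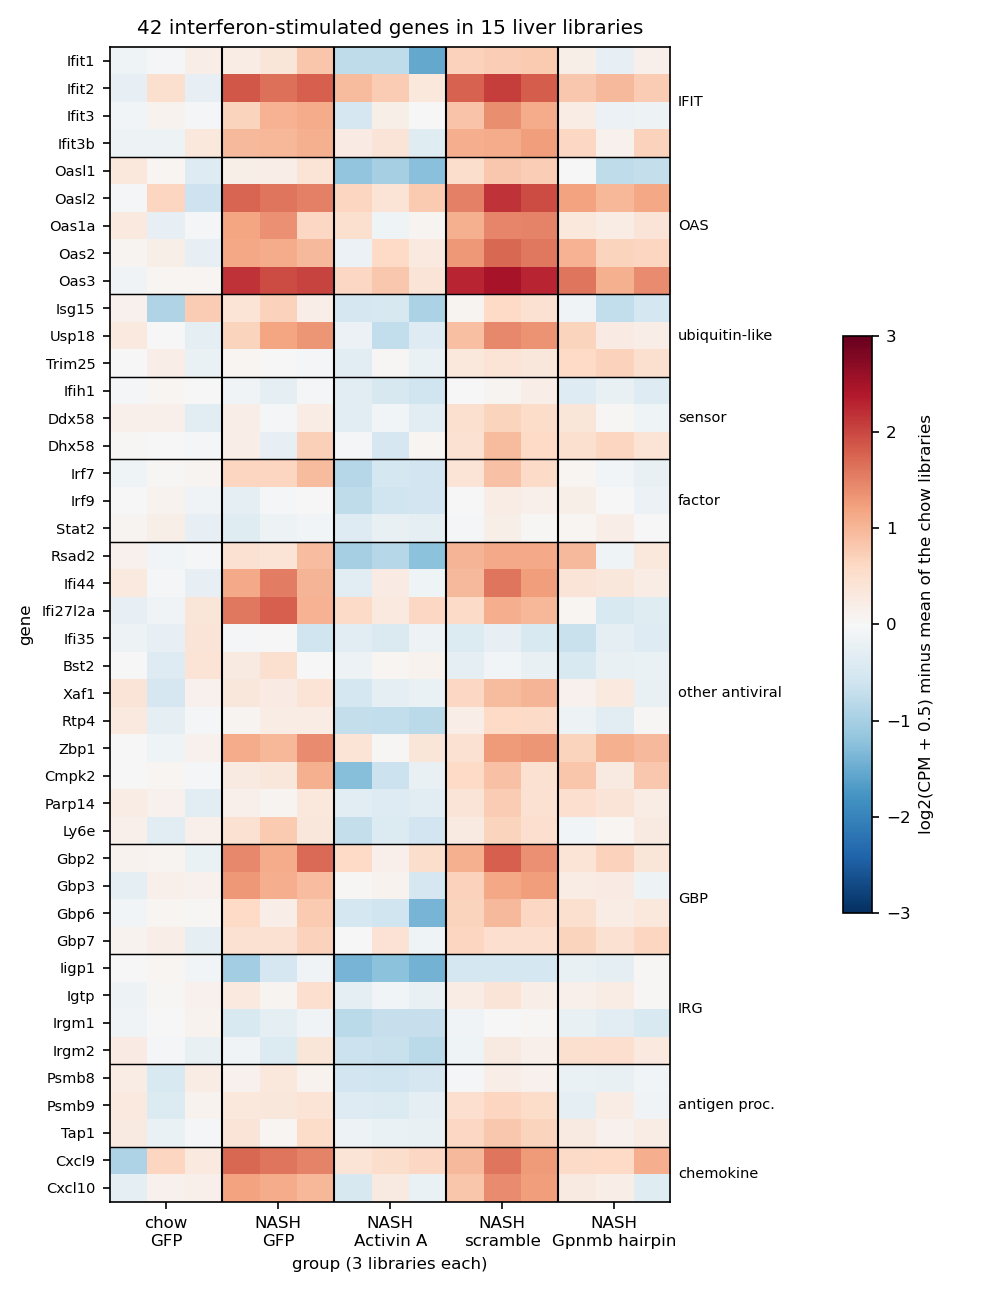
Level of each of the 42 genes (rows, grouped by role) in each of the 15 libraries (columns, 3 per group), as log2(CPM + 0.5) minus the mean of the 3 chow libraries (color, red above and blue below chow). The NASH GFP and scramble columns are red for most IFIT, OAS, GBP and chemokine rows, and the Activin A columns are the palest or bluest of the NASH diet groups in most rows.

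The IFIT genes encode proteins that bind viral RNA lacking the marks of the cell's own messenger RNA, and lie together on chromosome 19. On the diet 3 of 4 rose, 3 of 4 fell under Activin A and 4 of 4 fell under the hairpin. For this and the role groups below, the shares of all genes tested were 11.2% rising on the diet and 3.86% falling under Activin A. Under the hairpin they were 12.0% falling and 12.2% rising. Ifit2 stood at 2.07, 3.78 and 2.07 CPM in the chow libraries, 10.6, 9.13 and 10.1 CPM in NASH GFP and 5.41, 4.62 and 3.26 CPM in Activin A. It stood at 9.94, 12.4 and 10.2 CPM in scramble and 4.83, 5.43 and 4.68 CPM in hairpin libraries. NASH GFP lay clear of both chow and Activin A, and scramble lay clear of the hairpin group. The log2 fold change of Ifit2 was 1.96 ± 0.28, adjusted p = 0.00138 for the diet (3.88-fold), -1.16 ± 0.21, adjusted p = 0.0124 for Activin A and -1.12 ± 0.15, adjusted p = 0.000692 for the hairpin. Ifit1 differed less between diets, at 6.26, 6.65 and 8.0 CPM in chow and 8.11, 8.98 and 12.8 CPM in NASH GFP. Its Activin A libraries, at 3.88, 3.88 and 2.05 CPM, lay below every other library of the series. Scramble libraries held 11.6, 11.9 and 12.3 CPM and hairpin libraries 7.83, 5.80 and 7.73 CPM, which overlapped the chow range. The log2 fold change of Ifit1 was 0.55 ± 0.23, adjusted p = 0.138 for the diet, -1.60 ± 0.28, adjusted p = 0.0114 for Activin A and -0.75 ± 0.14, adjusted p = 0.00411 for the hairpin. Ifit3 rose on the diet (1.04 ± 0.20, adjusted p = 0.00624) and fell under Activin A (-1.10 ± 0.21) and the hairpin (-1.23 ± 0.17). Ifit3 and Ifit3b transcripts were 98% identical over 1697 aligned bases, so how reads were split between them is uncertain. Ifit3b gave 1.32 ± 0.37, -1.13 ± 0.34 (adjusted p = 0.0939) and -0.82 ± 0.27 for the same 3 comparisons.

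The OAS family makes an RNA second messenger when it senses double-stranded RNA, with Oasl1 and Oasl2 as relatives, and all 5 genes lie on chromosome 5. On the diet 4 of 5 rose, 3 of 5 fell under Activin A and 5 of 5 fell under the hairpin. Oas3 was scarce in chow livers, at 0.486, 0.604 and 0.621 CPM, and stood at 4.28, 3.67 and 3.87 CPM in NASH GFP libraries. It stood at 1.15, 1.37 and 0.906 CPM with Activin A, 4.75, 5.46 and 4.74 CPM in scramble and 2.75, 1.74 and 2.34 CPM in hairpin libraries. No 2 of the 5 groups overlapped, and their order from low to high was chow, Activin A, hairpin, NASH GFP and scramble. Its diet change was the largest of the 42 genes, 2.82 ± 0.36, adjusted p = 0.000705 (7.04-fold), and its change was -1.78 ± 0.28, adjusted p = 0.00743 under Activin A (3.44-fold lower) and -1.14 ± 0.23, adjusted p = 0.00512 under the hairpin. Oasl1 stood at 13.1, 10.9 and 7.93 CPM in chow and 11.9, 12.0 and 14.2 CPM in NASH GFP libraries, which overlapped with TMM and did not with scaling by library size alone. Activin A libraries, at 4.32, 5.03 and 4.11 CPM, lay below both. Scramble libraries held 15.2, 18.7 and 17.8 CPM against 10.5, 6.01 and 6.15 CPM with the hairpin, and these groups did not overlap. The log2 fold change of Oasl1 was 0.28 ± 0.22, adjusted p = 0.439 for the diet, -1.50 ± 0.17, adjusted p = 0.00156 for Activin A and -1.20 ± 0.20, adjusted p = 0.00188 for the hairpin. Oasl2 rose 3.25-fold on the diet (1.70 ± 0.32) and fell under Activin A (-1.08 ± 0.17) and the hairpin (-0.83 ± 0.17). Oas1a and Oas2 rose on the diet by 1.24 ± 0.31 and 1.20 ± 0.24. Their changes under Activin A, -1.03 ± 0.28, adjusted p = 0.0670 and -0.88 ± 0.23, adjusted p = 0.0599, did not pass the threshold. DESeq2 and the fit over all 15 libraries called both genes lower under Activin A. Oas1a and Oas2 both fell under the hairpin (-1.15 ± 0.19 and -0.80 ± 0.17).

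Of the 3 transcription factors, 1 rose on the diet, 2 fell under Activin A and 1 fell under the hairpin. Irf7, the factor that amplifies type I interferon production and is itself induced by it, stood at 21.4, 24.0 and 24.9 CPM in chow, 36.6, 37.1 and 45.6 CPM in NASH GFP and 12.7, 16.1 and 15.6 CPM in Activin A libraries. Every Activin A library lay below every chow library, and every NASH GFP library above. Scramble held 31.0, 43.7 and 34.9 CPM and hairpin libraries 24.5, 22.1 and 20.0 CPM, again without overlap. Irf7 rose on the diet (0.80 ± 0.15, adjusted p = 0.00629) and fell under Activin A (-1.43 ± 0.14, adjusted p = 0.000922) and the hairpin (-0.73 ± 0.13, adjusted p = 0.00303). Irf9, the DNA-binding part of the type I complex, gave -0.09 ± 0.15 on the diet, fell under Activin A (-0.53 ± 0.11, adjusted p = 0.0296) and gave -0.13 ± 0.10 under the hairpin. Irf9 shares 123 exon bases with Rnf31 on the same strand in GENCODE M21. Stat2, its partner, stood at a mean of 76.5 ± 11.0 CPM in chow and 61.5 ± 3.71 CPM with Activin A, and its log2 fold changes of -0.17 ± 0.16, -0.11 ± 0.10 and 0.03 ± 0.08 passed no threshold.

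The cytosolic RNA sensors Ifih1 (MDA5), Ddx58 (RIG-I) and their regulator Dhx58 (LGP2) gave log2 fold changes from -0.11 to 0.32 on the diet, with 0 of 3 called. Ifih1 stood at 39.2, 41.3 and 45.0 CPM in scramble and 29.8, 33.6 and 29.9 CPM in hairpin libraries, without overlap, and fell under the hairpin (-0.43 ± 0.09, adjusted p = 0.00530). Ddx58 fell under the hairpin as well (-0.47 ± 0.12, adjusted p = 0.0156). Under Activin A the sensors gave -0.34, -0.37 and -0.44, with adjusted p-values of 0.125, 0.111 and 0.383.

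Among genes of the ubiquitin-like pathway, Usp18, the protease that removes ISG15 and dampens interferon receptor signalling, stood at 8.21, 6.50 and 5.31 CPM in chow, 10.8, 15.7 and 17.1 CPM in NASH GFP and 5.79, 3.71 and 4.95 CPM in Activin A libraries. It stood at 12.7, 18.7 and 17.4 CPM in scramble and 10.8, 7.91 and 7.57 CPM in hairpin libraries. NASH GFP lay above chow and Activin A in every library. Usp18 rose on the diet (1.15 ± 0.24, adjusted p = 0.0100) and fell under Activin A (-1.59 ± 0.23, adjusted p = 0.00483) and the hairpin (-0.90 ± 0.18, adjusted p = 0.00460). Isg15, the ubiquitin-like protein itself, varied widely among chow libraries, at 5.83, 2.57 and 9.31 CPM, and its diet change was 0.34 ± 0.38, adjusted p = 0.600. Isg15 fell under Activin A (-1.18 ± 0.24, adjusted p = 0.0202) and the hairpin (-0.92 ± 0.23, adjusted p = 0.0142). Trim25, a ubiquitin ligase that activates RIG-I, was one of the 3 genes that rose under the hairpin, from 131, 141 and 134 CPM to 159, 172 and 148 CPM (0.24 ± 0.07, adjusted p = 0.0381).

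Of the 11 other antiviral genes, 3 rose on the diet (Ifi27l2a, Ifi44 and Zbp1), 8 fell under Activin A and 6 fell under the hairpin. Rsad2, which encodes viperin, an enzyme that makes a chain-terminating nucleotide, stood at 7.84, 6.72 and 6.76 CPM in chow, 9.99, 9.56 and 13.8 CPM in NASH GFP and 3.33, 3.71 and 2.72 CPM in Activin A libraries. It stood at 14.9, 16.2 and 16.2 CPM in scramble and 14.4, 6.49 and 8.93 CPM in hairpin libraries. The Activin A libraries were the lowest of the series, and the hairpin libraries ranged from the chow level to just under scramble. The log2 fold change of Rsad2 was 0.68 ± 0.21, adjusted p = 0.0546 for the diet, -1.77 ± 0.22, adjusted p = 0.00236 for Activin A (3.41-fold lower) and -0.68 ± 0.22, adjusted p = 0.0489 for the hairpin. Cmpk2, the neighbour of Rsad2 on chromosome 12 that supplies its nucleotide substrate, fell under Activin A (-1.37 ± 0.34, adjusted p = 0.0455) and gave 0.00 ± 0.19 under the hairpin. The nucleic acid sensor Zbp1 rose on the diet (1.31 ± 0.23, adjusted p = 0.00363), fell under Activin A (-0.96 ± 0.20, adjusted p = 0.0219) and gave -0.16 ± 0.23 under the hairpin. Ly6e, a membrane protein that restricts viral entry, stood at 244, 307 and 225 CPM in NASH GFP and 109, 134 and 118 CPM in Activin A libraries, which did not overlap. Ly6e fell under Activin A (-1.11 ± 0.14, adjusted p = 0.00247) and the hairpin (-0.40 ± 0.11), and its diet change of 0.56 ± 0.19 missed the threshold (adjusted p = 0.0662). Ifi27l2a rose on the diet (1.68 ± 0.29, adjusted p = 0.00383) and fell under both interventions (-1.09 ± 0.24 and -1.32 ± 0.25), as Ifi44 did (1.46 ± 0.31, -1.51 ± 0.28 and -1.13 ± 0.23). Rtp4 gave 0.19 ± 0.19 on the diet and fell under Activin A (-0.98 ± 0.14, adjusted p = 0.00487) and the hairpin (-0.64 ± 0.15, adjusted p = 0.0102). Parp14, which encodes an ADP-ribosyltransferase, fell under Activin A (-0.54 ± 0.10) and gave -0.17 ± 0.11 under the hairpin, and Xaf1 fell under the hairpin (-0.86 ± 0.18) and gave -0.74 ± 0.19 under Activin A (adjusted p = 0.0545). Ifi35 and Bst2, the latter encoding tetherin, which holds budding virus on the cell, passed no threshold in these 3 comparisons, with log2 fold changes from -0.27 to 0.27. Per kilobase of gene length, Bst2 had the highest mean level of the 42 genes in every group, from 140.4 CPM per kilobase in hairpin to 207 in NASH GFP libraries.

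**Figure D2:**
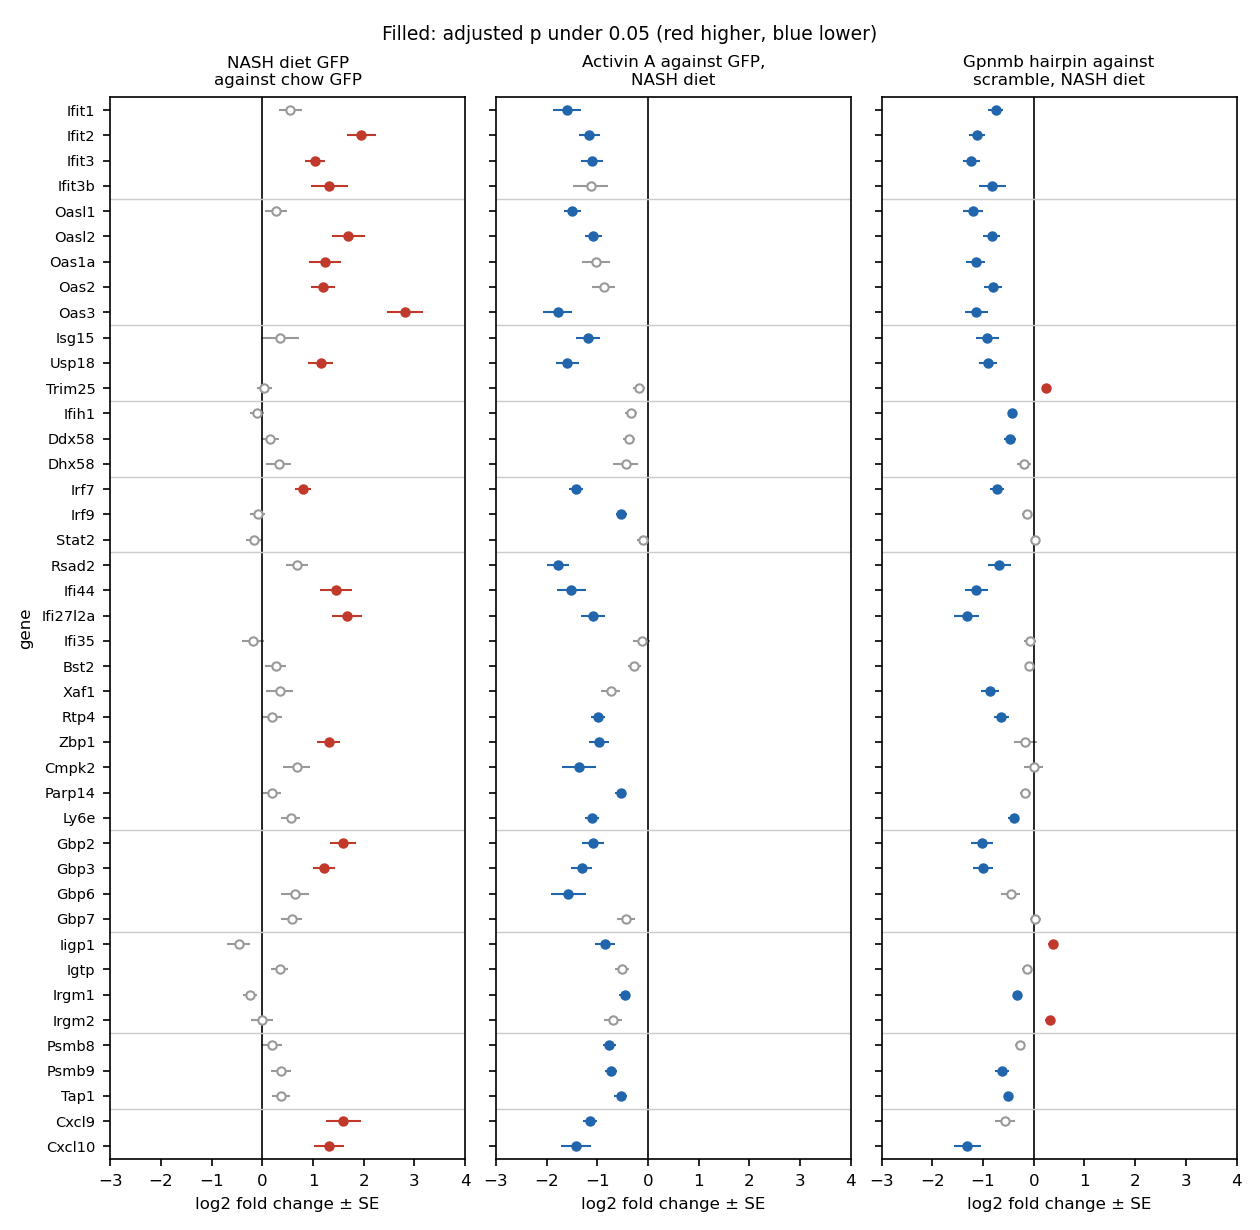
Log2 fold change with its standard error (horizontal axis) for each of the 42 genes (rows, grouped by role) in the diet, Activin A and hairpin comparisons. Filled points passed an adjusted p under 0.05 (red higher, blue lower). The diet panel has 16 red points, the Activin A panel 28 blue points, and the hairpin panel 26 blue and 3 red points.

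The guanylate-binding proteins (GBP), which coat and break open vacuoles of intracellular microbes, are classic targets of interferon gamma. On the diet 2 of 4 rose, 3 of 4 fell under Activin A and 2 of 4 fell under the hairpin. Gbp2 stood at 3.52, 3.40 and 2.76 CPM in chow, 9.54, 7.54 and 11.6 CPM in NASH GFP and 5.08, 3.60 and 4.83 CPM in Activin A libraries. It stood at 7.24, 12.3 and 9.09 CPM in scramble and 4.41, 5.49 and 4.25 CPM in hairpin libraries. Neither NASH control group overlapped chow, Activin A or the hairpin group. The log2 fold change of Gbp2 was 1.60 ± 0.25, adjusted p = 0.00216 for the diet (3.02-fold), -1.08 ± 0.22, adjusted p = 0.0212 for Activin A and -1.02 ± 0.21, adjusted p = 0.00629 for the hairpin. Gbp3 rose on the diet (1.22 ± 0.22, adjusted p = 0.00418) and fell under Activin A (-1.31 ± 0.21, adjusted p = 0.00773) and the hairpin (-1.0 ± 0.19, adjusted p = 0.00397). Gbp6 fell under Activin A (-1.57 ± 0.34, adjusted p = 0.0277), to 2.08, 1.94 and 0.906 CPM, and gave 0.65 ± 0.28 on the diet and -0.46 ± 0.19 under the hairpin. Gbp7, on chromosome 3 with Gbp2 and Gbp3, passed none of these thresholds (0.58 ± 0.20, -0.43 ± 0.18 and 0.03 ± 0.11). Gbp6 shares 1726 exon bases with the annotated gene Gm43302 and Gbp7 shares 637 with a pseudogene, so their counts are uncertain.

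The immunity-related GTPases (IRG) Iigp1, Igtp, Irgm1 and Irgm2, which act on the same vacuoles, gave the only members besides Trim25 that rose under the hairpin. On the diet 0 of 4 passed the test, under Activin A 2 of 4 fell, and under the hairpin 2 rose and 1 fell. Iigp1 was abundant in chow, at 342, 356 and 321 CPM, and stood at 164, 238 and 316 CPM in NASH GFP libraries. It stood at 129, 144 and 127 CPM with Activin A, 236, 234 and 237 CPM in scramble and 290.4, 281 and 346 CPM in hairpin libraries. The NASH GFP libraries spread widely below the chow range, the Activin A libraries lay below all others, and the hairpin libraries lay above scramble. Iigp1 gave -0.47 ± 0.22, adjusted p = 0.188 for the diet, fell under Activin A (-0.84 ± 0.20, adjusted p = 0.0420) and rose under the hairpin (0.37 ± 0.08, adjusted p = 0.00988). Irgm2 stood at 55.2, 45.3 and 39.9 CPM in chow, 42.8, 34.7 and 59.4 CPM in NASH GFP and 29.7, 29.1 and 26.1 CPM in Activin A libraries. It stood at 42.6, 56.1 and 51.2 CPM in scramble and 65.4, 65.9 and 57.0 CPM in hairpin libraries. Activin A libraries were again the lowest, and hairpin libraries lay just above scramble with TMM and overlapped it with scaling by library size alone. Irgm2 gave 0.00 ± 0.21 for the diet and -0.69 ± 0.18, adjusted p = 0.0539 for Activin A, which missed the threshold, and rose under the hairpin (0.32 ± 0.10, adjusted p = 0.0440). Irgm1, the regulator of the family, stood at 41.1, 45.6 and 52.4 CPM in NASH GFP and 32.1, 34.4 and 34.7 CPM in Activin A libraries, and fell under Activin A (-0.46 ± 0.11, adjusted p = 0.0445) and the hairpin (-0.32 ± 0.08, adjusted p = 0.0159). Igtp gave 0.35 ± 0.17, -0.51 ± 0.13 and -0.14 ± 0.09, none of them called. Igtp and Irgm2 share 162 exon bases on the same strand.

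The antigen processing genes Psmb8 and Psmb9, subunits of the immunoproteasome, and Tap1, part of the peptide transporter, lie together on chromosome 17. None of the 3 passed the threshold on the diet, 3 of 3 fell under Activin A and 2 of 3 fell under the hairpin. Psmb8 stood at 19.5, 12.0 and 19.5 CPM in chow, 18.2, 20.7 and 17.8 CPM in NASH GFP and 11.0, 10.8 and 11.7 CPM in Activin A libraries. Activin A lay below every library of the other groups with TMM and overlapped chow with scaling by library size alone. Psmb8 fell under Activin A (-0.76 ± 0.12, adjusted p = 0.00770) and gave -0.27 ± 0.10, adjusted p = 0.0878 under the hairpin. Psmb9 fell under Activin A (-0.74 ± 0.12, adjusted p = 0.00740) and the hairpin (-0.63 ± 0.13, adjusted p = 0.00651), and Tap1 did too (-0.54 ± 0.13, adjusted p = 0.0432 and -0.51 ± 0.08, adjusted p = 0.00147). Psmb9 and Tap1 share 212 exon bases on opposite strands.

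The chemokines Cxcl9 and Cxcl10, which draw T cells through the receptor CXCR3, both rose on the diet and fell under Activin A. Cxcl9 stood at 2.37, 8.01 and 6.21 CPM in chow, 17.7, 16.0 and 14.8 CPM in NASH GFP and 6.77, 7.37 and 7.85 CPM in Activin A libraries. Every NASH GFP library lay above every chow and Activin A library, and Activin A overlapped chow. The log2 fold change of Cxcl9 was 1.60 ± 0.34, adjusted p = 0.0106 for the diet, -1.15 ± 0.14, adjusted p = 0.00224 for Activin A and -0.57 ± 0.20, adjusted p = 0.0585 for the hairpin. Cxcl10 stood at 1.52, 2.19 and 2.21 CPM in chow, 5.17, 4.78 and 4.36 CPM in NASH GFP and 1.26, 2.46 and 1.63 CPM in Activin A libraries. It stood at 3.88, 6.03 and 5.37 CPM in scramble and 2.45, 2.32 and 1.42 CPM in hairpin libraries. Both NASH control groups lay above the other 3 groups, which overlapped. Cxcl10 rose on the diet (1.31 ± 0.29, adjusted p = 0.0121) and fell under Activin A (-1.42 ± 0.29, adjusted p = 0.0214) and the hairpin (-1.31 ± 0.27, adjusted p = 0.00591).

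**Figure D3:**
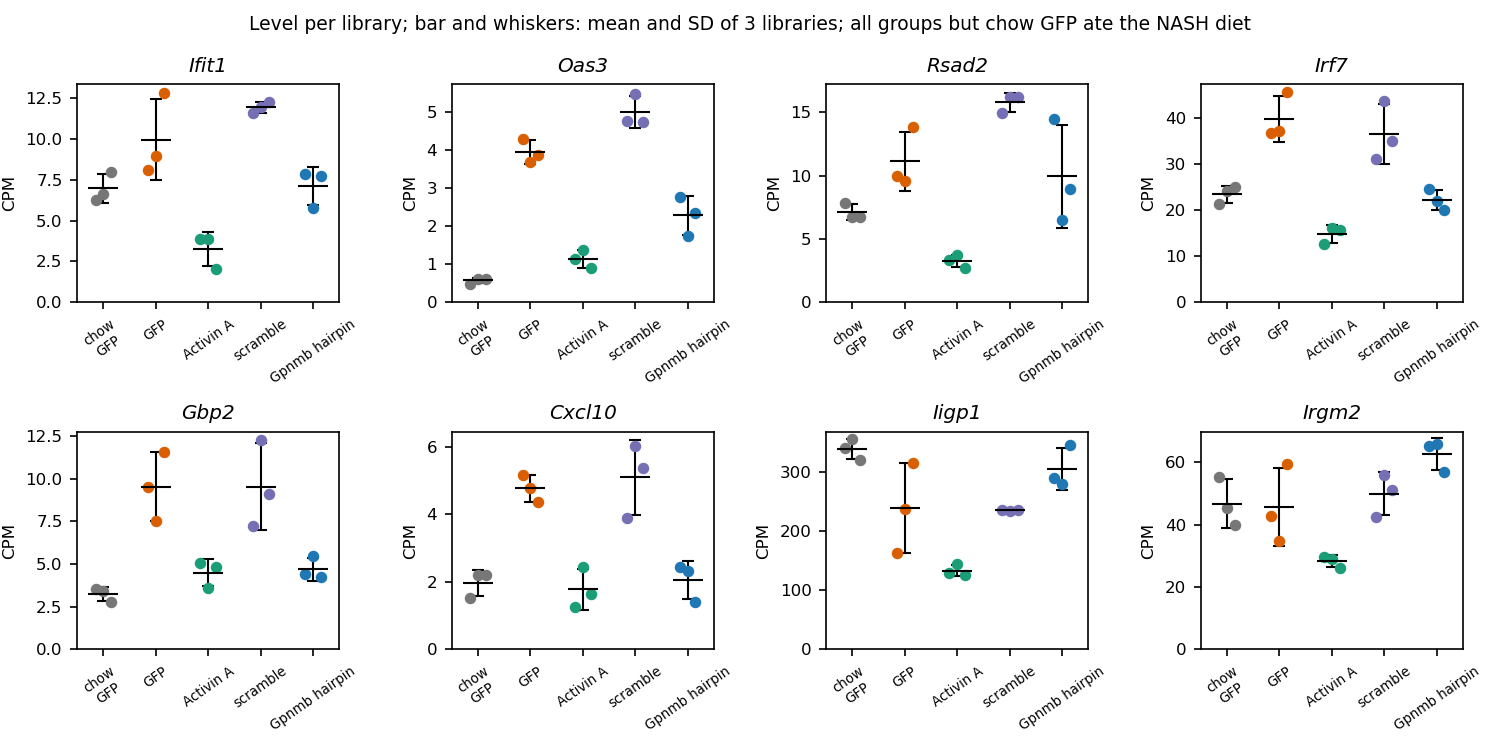
CPM of 8 of the genes in every library (points), with the mean and SD of 3 libraries (bar and whiskers), by group; the linear axes start at 0. Activin A libraries are the lowest of the series for Ifit1, Rsad2, Irf7, Iigp1 and Irgm2, and hairpin libraries lie above scramble only for Iigp1 and Irgm2 among these 8 (for Irgm2 they overlap if scaled by library size alone).

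Several of these calls were lost in fits with 1 library left out, some of them whichever library of a group was left out. For the diet, 12 of 16 calls held under all alternatives, and 4 were lost when 1 library was left out. Ifi44 was lost without NASH GFP replicate 2 (adjusted p = 0.0535) and Cxcl10 without chow replicate 1 or NASH GFP replicate 1 (up to 0.0578). Oas1a was lost without chow replicate 2 or 3 or NASH GFP replicate 1 or 2 (up to 0.0894), and Ifit3b without any library except chow replicate 3 (up to 0.116). For Activin A, 13 of 28 held: Ifit1, Irf7, Oasl1, Oasl2, Oas3, Rsad2, Usp18, Rtp4, Gbp3, Psmb8, Psmb9, Cxcl9 and Ly6e. The number that fell was 14, 17 and 13 without Activin A replicate 1, 2 and 3, and the lost calls reached adjusted p-values of up to 0.181. Calls over all genes shrank in these 3 fits as well, to 206 of 14954, 266 of 15079 and 180 of 15059 lower. The main fit had 564 of 14598 lower. For the hairpin, 19 of 29 held. Rsad2 and Ifit3b were each lost in 5 of 6 leave-one-out fits (up to 0.134 and 0.174), and Ly6e without scramble replicate 2 or 3 or hairpin replicate 1 or 2 (up to 0.0927). Isg15 and Ddx58 were lost without scramble replicate 2 or 3 or hairpin replicate 2 (up to 0.0626 for both), Irgm1 without scramble replicate 2 or 3 (up to 0.0854) and Rtp4 without scramble replicate 3 (0.0545). Of the 3 genes that rose under the hairpin, Iigp1 was lost without scramble replicate 3 (0.0524) and in the fit over all 15 libraries, and Irgm2 and Trim25 were lost in 4 and 5 of 6 leave-one-out fits (up to 0.135 and 0.153), in that fit and with scaling by library size alone.

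The 2 classes were then set side by side, type I genes (the 9 IFIT and OAS genes) and gamma-induced genes (Gbp2, Gbp3, Gbp6, Gbp7, Irgm1, Irgm2, Cxcl9 and Psmb8). On the diet, 7 of the 9 type I genes rose, with a median log2 fold change of 1.24, and 3 of the 8 gamma-induced genes rose, with a median of 0.61. Under Activin A, 6 of 9 and 6 of 8 fell, with medians of -1.13 and -0.92. Under the hairpin, 9 of 9 type I genes fell, with a median of -1.12, whereas 3 of 8 gamma-induced genes fell and 1 rose, with a median of -0.39. The median over all genes tested lay between -0.01 and 0.00 in these comparisons. Of all genes tested, 11.2% rose on the diet and 3.86% fell under Activin A. Under the hairpin 12.0% fell and 12.2% rose, so 1 of 8 rising is near the share of all genes. In each library the mean log2 level of the gamma-induced genes was also subtracted from that of the type I genes. The pooled SD of this quantity between libraries of a group was 0.101 (log2). The type I median minus the gamma-induced median of the fold changes was 0.623 for the diet, -0.208 for Activin A and -0.731 for the hairpin. The SD is not the spread of these differences between medians, which therefore cannot be judged against it. No p-value is given for these differences, and the 2 classes also differ in expression level, as given below. The Activin A difference was -0.424 without Activin A replicate 2, -0.330 without Activin A replicate 1 and -0.428 with wider classes, and the hairpin difference was -0.440 with wider classes.

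Averaged as log2(CPM + 0.5) per library, the type I genes stood at 1.89, 2.02 and 1.79 in chow, 3.03, 3.04 and 3.05 in NASH GFP and 1.94, 2.03 and 1.75 in Activin A libraries. They stood at 3.13, 3.45 and 3.35 in scramble and 2.56, 2.22 and 2.38 in hairpin libraries. Activin A overlapped chow, and the hairpin group lay between chow and the NASH control groups without overlapping either. The gamma-induced genes stood at 3.33, 3.50 and 3.43 in chow, 4.06, 3.93 and 4.16 in NASH GFP and 3.23, 3.25 and 3.06 in Activin A libraries. They stood at 3.89, 4.23 and 4.08 in scramble and 3.73, 3.69 and 3.67 in hairpin libraries. Here Activin A lay below every chow library with TMM scaling, and the hairpin group lay between chow and scramble. With scaling by library size alone, computed after the data were seen, Activin A (3.08 to 3.26) overlapped chow (3.16 to 3.31), and the other positions named for both classes held.

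**Figure D4:**
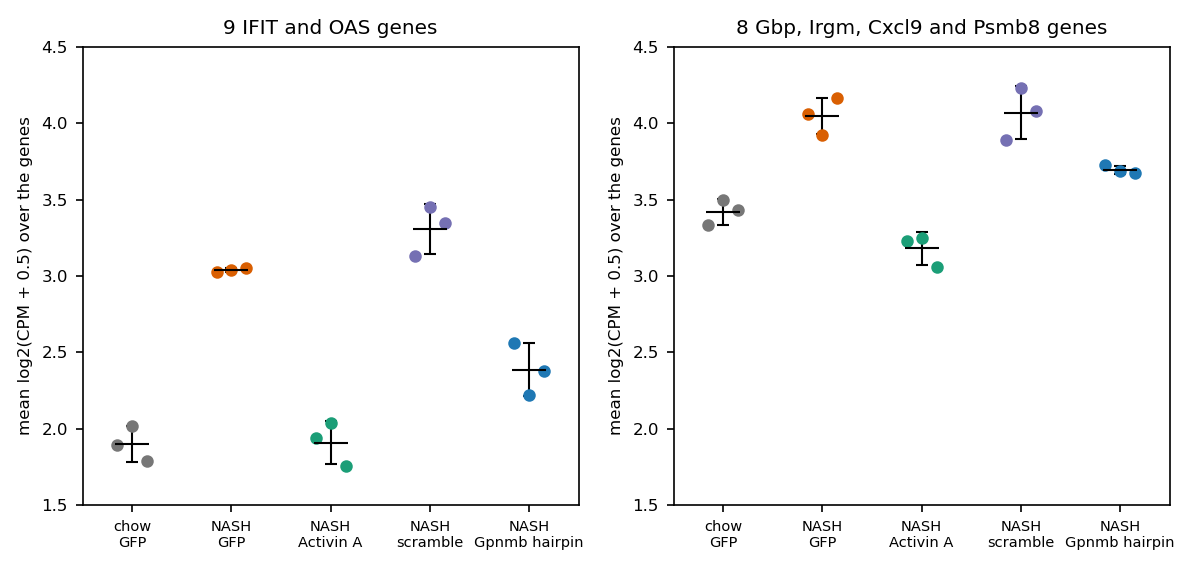
Mean log2(CPM + 0.5) over the 9 IFIT and OAS genes (left) and the 8 gamma-induced genes (right) in each library (points) by group, with the mean and SD of 3 libraries; the vertical axes run from 1.5 to 4.5. Both NASH control groups lie highest in both panels, and Activin A overlaps chow on the left and lies below it on the right, where it overlaps chow if scaled by library size alone.

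The diet calls lay mostly among the genes with low counts. Of the 21 genes with a mean over all 15 libraries below 10.4 CPM, 15 rose on the diet, with a median log2 fold change of 1.24. Of the 21 above it, 1 rose, Irf7, with a median of 0.19. Every type I and gamma-induced gene called on the diet was among the lower genes. Of the type I genes only Oasl1 was among the upper genes, whereas of the gamma-induced genes Gbp7, Irgm1, Irgm2 and Psmb8 were. Class and level were thus not separated, and the part of level in the class difference on the diet was not tested. Under Activin A 17 of the lower and 11 of the upper genes fell, and under the hairpin 17 and 9 fell. Of all genes at any level, 11.2% rose on the diet, 3.86% fell under Activin A and 12.0% fell under the hairpin. With a minimum count of 50, 1331 of 11247 genes rose on the diet, against 1607 of 14388 in the main fit. Shares of all genes split at 10.4 CPM were not computed.

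Activin A livers were also compared with chow livers directly, in the fit over all 15 libraries, without using NASH GFP as the reference. There, 13 of the 42 genes were lower than chow and 2 were higher, where 11.8% of 15665 genes were lower and 11.8% higher. With scaling by library size alone the counts were 9 lower and 4 higher, where 964 of the 15665 genes were lower and 3415 higher. The lower genes were Ifit1, Oasl1, Irf7, Irf9, Rsad2, Ifih1, Rtp4, Ly6e, Gbp6, Iigp1, Irgm1, Irgm2 and Psmb8. Iigp1 had the largest difference (-1.35 ± 0.17, adjusted p = 1.86e-05), at 2.54-fold below chow. Oasl1 was 2.38-fold lower (-1.25 ± 0.22, adjusted p = 0.000575), Rsad2 2.18-fold (-1.13 ± 0.25) and Ifit1 2.12-fold (-1.08 ± 0.24). Oasl1, Rsad2 and Ifit1 had diet changes that missed the threshold, and both comparisons share the chow libraries. Oas3 (1.00 ± 0.32, adjusted p = 0.0287) and Ifit2 (0.76 ± 0.24, adjusted p = 0.0299) were called higher than chow. For Ifit2 the 2 groups overlapped with TMM and did not with scaling by library size alone. Of the 13 lower genes, 10 were among the 21 with higher mean levels. The call of Ifit2 was lost without chow replicate 1 or 3 or Activin A replicate 1 or 2 (adjusted p of up to 0.133) and that of Oas3 without chow replicate 1 or Activin A replicate 1 or 2 (up to 0.106), and both were lost in a fit of the 2 groups alone. Gbp6 was lost without Activin A replicate 3 (0.0921), Psmb8 without chow replicate 1 (0.0584) and Ly6e without either chow or Activin A replicate 1 (up to 0.0664), while 9 of the 15 calls held under all alternatives.

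The 2 interventions share no library, so their effects on each gene can be set side by side. Of the 28 genes that fell under Activin A, 20 (71.4%) also fell under the hairpin, which is 76.9% of the 26 that fell there. Over all 14239 genes tested in both, 322 fell in both, 58.1% of those lower under Activin A and 18.3% of those lower under the hairpin. The 20 genes were Ifit1, Ifit2, Ifit3, Oasl1, Oasl2, Oas3, Isg15, Usp18, Irf7, Rsad2, Ifi44, Ifi27l2a, Rtp4, Ly6e, Gbp2, Gbp3, Irgm1, Psmb9, Tap1 and Cxcl10. For 36 of the 42 genes the Activin A fold change was the lower of the pair. Over all 15665 genes in the fit described next, the difference was positive for 48.7%. The difference of the 2 effects was tested for each gene as an interaction in the fit over all libraries. It was called for 2 of 42 genes, Iigp1 (-1.22 ± 0.23, adjusted p = 0.00636) and Irgm2 (-1.01 ± 0.24, adjusted p = 0.0196), both lower under Activin A (2.14% of 15665 genes were called in this direction and 1.90% in the other). DESeq2 called 7 of the 42 in this direction, and over all 14750 genes 533 in this direction and 452 in the other. The call for Iigp1 held under all 18 alternatives. The call for Irgm2 was lost without Activin A replicate 3 (adjusted p = 0.0663), scramble replicate 1 (0.0614) or hairpin replicate 2 (0.0560). For Cmpk2, which fell under Activin A and not under the hairpin, the difference was -1.37 ± 0.39, adjusted p = 0.0568, and for Gbp6 it was -1.11 ± 0.37, adjusted p = 0.109.

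**Figure D5:**
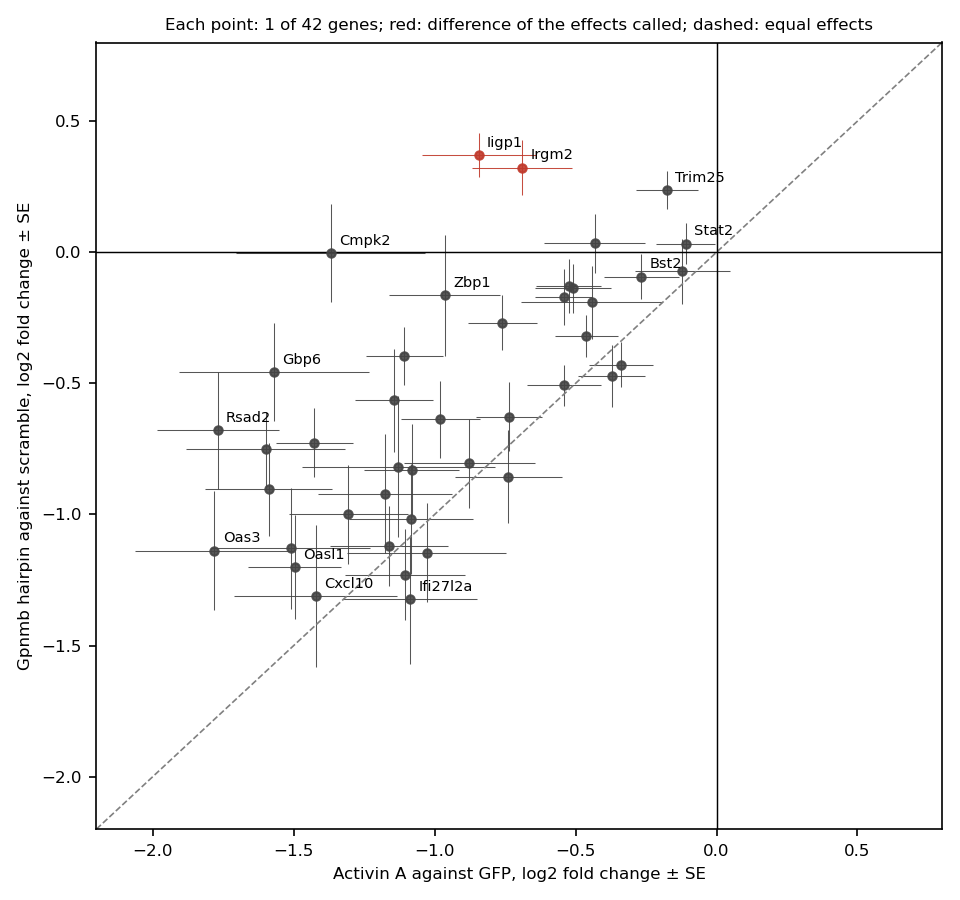
Log2 fold change under Activin A (horizontal) and under the Gpnmb hairpin (vertical) for the 42 genes, with standard errors; the dashed line marks equal effects and red marks the 2 genes whose effects differed in the interaction test. Most genes lie in the lower left, 36 of 42 lie above the dashed line, and Iigp1 and Irgm2 lie to the upper left.

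Genes upstream in the pathway were read from lists. Over all genes tested, 11.2% rose on the diet, and 3.86% fell under Activin A. Under the hairpin 12.0% of all genes fell and 12.2% rose. Of 13 interferon ligand genes, 2 had counts, and neither passed the filter. Ifng, the gene of interferon gamma, reached at most 0.23 CPM in any library and Ifnk at most 0.55 CPM. Of 9 receptor and kinase genes, Ifngr1 (0.86 ± 0.17), Ifngr2 (0.97 ± 0.18) and Il10rb (1.12 ± 0.22) rose on the diet and the other 6 did not pass the test. Ifnar2, a chain of the type I receptor, fell under Activin A (-0.70 ± 0.10, adjusted p = 0.00580) and gave 0.19 ± 0.12 under the hairpin, and its interaction was called (-0.89 ± 0.18, adjusted p = 0.00983). Under the hairpin Ifngr2 (-0.45 ± 0.10) and Il10rb (-0.69 ± 0.18) fell. Among further interferon factors, Irf8 (1.51 ± 0.22), Ciita (2.06 ± 0.42) and Batf2 (3.55 ± 0.96) rose on the diet, and Irf1, Irf5 and Irf8 fell under Activin A. Under the hairpin Ciita (-1.38 ± 0.28), Irf5 (-1.15 ± 0.26) and Irf8 (-0.98 ± 0.21) fell and Irf2 rose (0.38 ± 0.10). Of 15 measured nucleic acid sensing genes 7 rose on the diet, led by the endosomal receptor genes Tlr13 (2.79 ± 0.31), Tlr7 (2.77 ± 0.37) and Tlr8 (2.64 ± 0.47), 4 fell under Activin A and 4 fell and 1 rose under the hairpin. Of 7 genes that restrain the pathway or were listed with them, 1 rose on the diet, the phosphatase gene Ptpn6 (0.58 ± 0.16), and under the hairpin Ptpn6 fell (-0.47 ± 0.10) while Pias1 and Ptpn2 rose.

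A further list of 56 interferon-stimulated genes outside the 42 had 53 with counts. On the diet 18 rose and 1 fell, under Activin A 19 fell, and under the hairpin 21 fell and 1 rose, with medians of 0.38, -0.47 and -0.38. Over all genes tested, 11.2% rose and 5.82% fell on the diet, and 3.86% fell under Activin A. Under the hairpin 12.0% of all genes fell and 12.2% rose. Ifi204, a sensor of DNA, rose on the diet (1.80 ± 0.19) and fell under Activin A (-1.12 ± 0.19), and so did Trim30a (1.58 ± 0.18 and -1.03 ± 0.17). Under the hairpin the smallest p-values belonged to Samd9l (-1.24 ± 0.11), Slfn2 (-1.49 ± 0.21) and H2-D1, a class I antigen-presenting molecule (-0.43 ± 0.07). The single gene lower on the diet and higher under the hairpin was Gm4951, an immunity-related GTPase gene (-0.86 ± 0.17 and 0.39 ± 0.07), named here after its values were seen. Ifi47, another gene of that family, gave the only call of the list in the interaction (-0.93 ± 0.25, adjusted p = 0.0476).

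The promoter motifs were set beside the responses. The 18 genes with GAAANNGAAA had median log2 fold changes of 0.57 on the diet, -1.06 under Activin A and -0.72 under the hairpin. Of these 18, 7 rose on the diet, 9 fell under Activin A, and 13 fell and 1 (Irgm2) rose under the hairpin. The 14 genes whose promoter lacked it had medians of 0.37, -0.92 and -0.60. Of these 14, 5 rose on the diet, 11 fell under Activin A, and 8 fell and 1 (Trim25) rose under the hairpin. Among the 8 genes with TTCNNNGAA, Psmb8, Gbp7 and Irgm2 of the printed sequences included, the medians were 0.31, -0.60 and -0.12. These counts are descriptions and no test was made. Beside them, 11.2% of all genes tested rose on the diet and 3.86% fell under Activin A. Under the hairpin 12.0% of all genes fell and 12.2% rose.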

How the data were processed

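Messenger RNA of 15 mouse liver libraries, prepared with a stranded mRNA kit per the labels' protocols, is given in 3 tables, 1 per pair of groups. Their columns hold raw counts per gene, deposited by the authors, with the authors' own log2 fold change, p-value and adjusted p per gene. The build was GRCm38 (mm10), per the submitters' processing notes; the aligner and counter were not given in the sources used here. The tables were joined by gene identifier to 26839 genes (23148 genes stand in both tables with the NASH GFP libraries, and 0 of these differ in those counts). No 2 libraries of a group agreed within sampling noise (lowest chi-square per degree of freedom 5.18).

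Depth was 15276879 to 23467867 counts per library. Genes were filtered with filterByExpr (minimum count 10), scaled by TMM and tested two-sided with edgeR 4.0.16 in R 4.3.3 (glmQLFit and glmQLFTest), with Benjamini-Hochberg adjustment over all genes tested, called at an adjusted p under 0.05. The diet, Activin A and hairpin comparisons used their 2 groups; the comparisons across tables and the interaction were contrasts of 1 fit over all 15 libraries. Values after ± are the SE of a log2 fold change or the SD of 3 libraries. CPM are counts per 1e+06 of TMM-scaled library size. The scripts were tested on simulated data. The 42 genes and the gene lists were chosen with earlier results of these data known. All 42 are accounted for, with full values for those of smallest p in each role, and up to 3 called genes of smallest p per comparison from each other list. Alternatives were other scalings, filters, DESeq2 1.42.0, limma 3.58.1 (voom), a replicate block, other fits and leaving out each library. Same-numbered libraries did not deviate together (correlations -0.130 to 0.0292).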

Additional observations from a re-analysis of the deposited data

How the results depend on the processing

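Of 4162 single gene values recomputed under alternatives, 3773 kept their direction and their side of the threshold, 124 were not called in either fit and changed sign, 178 lost a call, 86 gained one and 1 changed sign with a call: Irgm1 in scramble against chow, which went from -0.02 to 0.31 (log2) when scaled by library size alone. The diet count of lower genes was 1 in the fit of all 15 libraries. The hairpin count of higher genes was 0 in that fit, and 1 with library size alone or a minimum count of 50. In scramble against chow, 0 genes were lower with library size alone. In Activin A against chow, 4 genes were higher with library size alone, 1 without a filter and 0 in a fit of the 2 groups. Over all genes these counts were 3415 of 15665, 1922 of 26839 and 1402 of 14152. In the interaction, 7 genes were lower with DESeq2 (533 of all 14750) and 5 without a filter (472 of all 26839). With wider classes the type I minus gamma difference was -0.428 for Activin A and -0.440 for the hairpin. The cause was not tested.

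With 1 library left out, the counts ranged from 0 to 1 (diet, lower), 13 to 28 (Activin A, lower), 0 to 3 (hairpin, higher), 0 to 2 (scramble against chow, lower), 0 to 3 (Activin A against chow, higher), 0 to 1 (scramble against NASH GFP, higher) and 1 to 3 (interaction, lower). Over all genes, the count lower under Activin A then ranged from 180 to 900. The class difference ranged from 0.475 to 0.788 (diet), -0.424 to -0.142 (Activin A) and -0.736 to -0.614 (hairpin).

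The replicate numbers are not shown to pair the libraries, since no correlation of same-numbered libraries passed 0.1. With the number as a replicate block the counts were 15 higher for the diet, 24 lower for Activin A, and 25 lower and 1 higher for the hairpin, where Irgm2 and Trim25 missed the threshold. With 3 libraries a group and means near or below 10.4 CPM for 21 of the genes, a change that missed the threshold was not shown to be absent.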
